A study of Mus musculus with 24 samples.

Results

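Hearts of sedentary mice labelled ZT12 were compared with hearts of sedentary mice labelled ZT0. The comparison used 12 of the 24 heart libraries in the study, chosen by their labels alone: 6 libraries of the group ZT12-SED and 6 of the group ZT0-SED. All mice were male, wild-type C57Bl/6 animals aged 12 weeks that were kept in equal periods of light and dark, with handling in the dark phase carried out under red light. ZT counts hours from lights on, so ZT0 starts the rest phase of a mouse and ZT12 starts its active phase. The labels do not say how long after these hours the hearts were taken, and ZT0 and ZT12 stand below for the group labels. The sedentary mice were the controls of 2 further groups of 6, ZT12-EX and ZT0-EX, which ran on a treadmill once for 60 min at 10 m/min and 0% grade. Replicates 1 to 3 of each group were sequenced on flow cell 1 and replicates 4 to 6 on flow cell 2, so each flow cell held 3 mice per group. The replicates are named as biological replicates, and 2 times of day cannot give the peak or the full amplitude of a rhythm.

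The circadian clock of heart cells is a transcriptional feedback loop. BMAL1 (encoded by Arntl, also called Bmal1) pairs with CLOCK or its relative NPAS2, binds E-box sequences and drives the Per and Cry genes, the REV-ERB genes Nr1d1 and Nr1d2, and the output factors Dbp, Tef and Hlf. PER and CRY proteins then inhibit that activation, REV-ERB proteins repress Arntl and Npas2, and ROR proteins activate the same genes. In the heart this clock is known to time metabolism, ion channel expression and responses to hormones such as glucocorticoids.

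Library totals were 9697334 to 20424649 counts in ZT12-SED and 13822708 to 23067191 in ZT0-SED, so 3 counts correspond to 0.130 to 0.309 CPM of a library's total (counts scaled to a total of 1e6). The libraries differed between flow cells and, within flow cell 1, between the groups. Transcripts of the mitochondrial genome took 40.7% to 55.1% of counts in ZT12-SED 1 to 3, against 25.5% to 34.2% in ZT0-SED 1 to 3, and 14.7% to 20.7% against 8.35% to 23.7% in replicates 4 to 6. When each gene was set against its mean over libraries, its level was lower the higher its GC content in ZT12-SED 1 to 3 (Spearman correlation across genes -0.82 to -0.76) and less so in ZT0-SED 1 to 3 (-0.51 to 0.24), whereas in replicates 4 to 6 of both groups the relation was positive (0.53 to 0.68). ZT12-SED 1 and ZT12-SED 2 had the lowest mean correlations with the other libraries among the 12, at 0.820 and 0.884. Replicate 6 of both groups held transcripts of fast skeletal muscle, such as Tnnc2 at 59.3 CPM in ZT0-SED and 99.1 CPM in ZT12-SED against group medians of 0.142 and 0.0811 CPM, on the scale of the normalised library size that holds for all CPM values below. On that scale 3 counts stand for more than 0.309 CPM in ZT12-SED 1, whose normalised size was 5213526. Markers of cardiomyocytes summed to 63255 to 125488 CPM in ZT0-SED and 41632 to 88332 CPM in ZT12-SED. Of the 10 markers 0 were higher and 1 lower, against 2.46% and 2.74% of all genes tested. Their median log2 change was -0.72 (-1.36 for flow cell 1 and -0.23 for flow cell 2, with 2 of 10 above 0). The lower count was 0 without ZT12-SED 1, 2 or 3 or without ZT0-SED 1 or 3. It was 5 without ZT0-SED 6, where 1617 of all 15394 genes tested were lower. Markers of lung and thymus summed to at most 0.162 CPM in any library. In bulk heart RNA, fewer cells of a type and less RNA per cell cannot be told apart.

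Across the whole transcriptome, 795 of 15294 genes tested differed between ZT12 and ZT0 in sedentary hearts, which is 5.2% (edgeR quasi-likelihood test with flow cell as a covariate, adjusted p below 0.05). That model held all 24 libraries, so its estimate of the spread was shared with the exercised groups. Fitted alone, the 12 sedentary libraries gave 243 of 14358 genes, and 60 with the replicate number as the covariate in place of flow cell. Of these, 376 genes were higher at ZT12 (2.46%) and 419 lower (2.74%), and 153 and 193 of them differed more than 2-fold. The 6 libraries of one time did not overlap with the 6 of the other in 260 genes (1.7%), 136 higher (0.889%) and 124 lower (0.811%). Of the 795 genes 794 had the same sign on both flow cells, which follows largely from their being called on both together. The sizes differed. On flow cell 1 the median difference was 1.20 log2 units for genes called higher and -1.57 for genes called lower, whereas flow cell 2 gave 0.68 and -0.43 (differences of mean log2 CPM with a prior count of 2). The number of calls also rested on single libraries. It was 384, 322 and 423 without ZT12-SED 1, 2 or 3, 329, 381, 305 and 447 without ZT0-SED 1, 2, 3 or 4, and 2808 without ZT0-SED 6, and without ZT12-SED 1 and 2 together it was 225 (1.43%). The 2808 genes without ZT0-SED 6 were 1191 higher and 1617 lower of 15394 tested. List counts without ZT0-SED 6 below stand beside these and not beside 2.46% and 2.74%. With scaling to library totals alone, which moved the median of all genes from -0.007 to -0.178, 69 genes were higher and 165 lower, and with GC offsets 327 were higher (2.14%) and 204 lower (1.33%).

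Each flow cell alone gave a very different count. On flow cell 1, 6552 of 15071 genes passed (43.5%), and on flow cell 2, 35 of 15165 (0.231%). The difference itself differed between flow cells for 1998 genes (13.1%), 470 of them more positive on flow cell 1 (3.07%) and 1528 more negative (9.99%) (edgeR, adjusted p below 0.05). GC content moved with these calls. The median GC content was 45.1% for genes called higher and 55.7% for genes called lower, against 49.6% for all genes tested, and the difference between times correlated with GC content at a Spearman coefficient of -0.80 for flow cell 1 and -0.06 for flow cell 2 (across genes, which are not independent replicates). Of the 5 equal classes of genes by GC content, the lowest had 147 higher and 2 lower calls and the highest 15 higher and 226 lower. After offsets that level each library's trend with GC content, 531 genes passed (3.47%). Of the original calls, 226 of 376 higher and 147 of 419 lower genes passed with these offsets too. With the offsets 0 genes differed between flow cells by edgeR (0.0%), with 1613 at an unadjusted p below 0.05. The smallest adjusted p of that edgeR test was 0.0534, just over the threshold. The GC trend and the mitochondrial share differed between the groups on flow cell 1, so there they cannot be told apart from time of day.

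**Figure D1:**
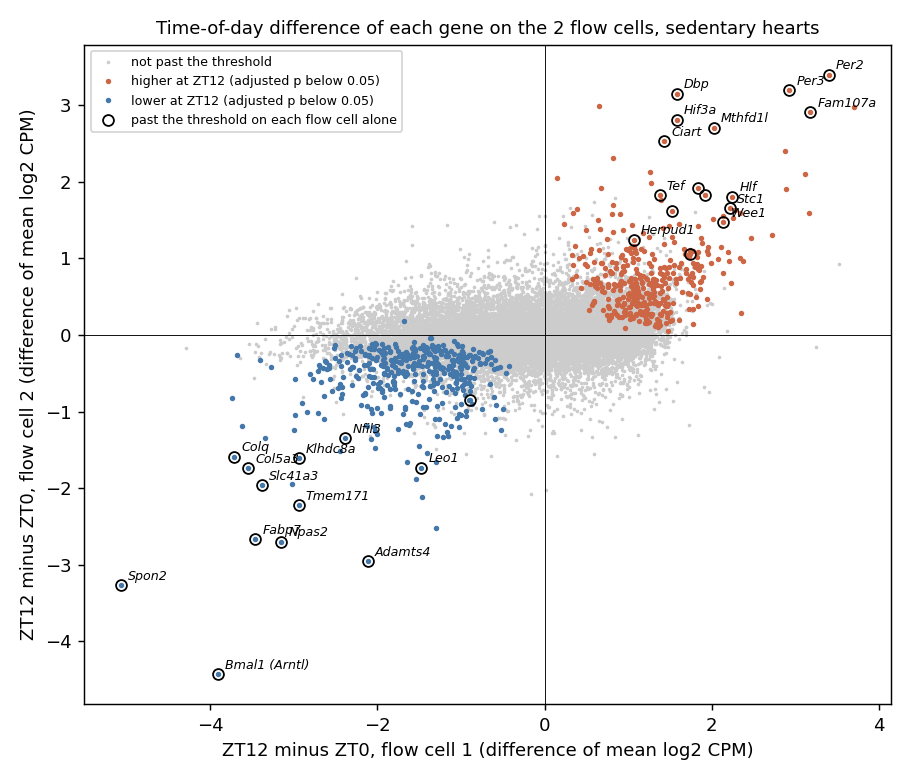
Difference between ZT12-SED and ZT0-SED (mean log2 CPM) on flow cell 1 (x axis) and on flow cell 2 (y axis), 1 point per gene and 3 mice per group on each axis, with genes called over all mice in colour and the genes called on each flow cell alone ringed. The points spread more widely along flow cell 1 than along flow cell 2, and Bmal1 (Arntl), Per2 and Per3 lie far out on both axes.

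**Figure D2:**
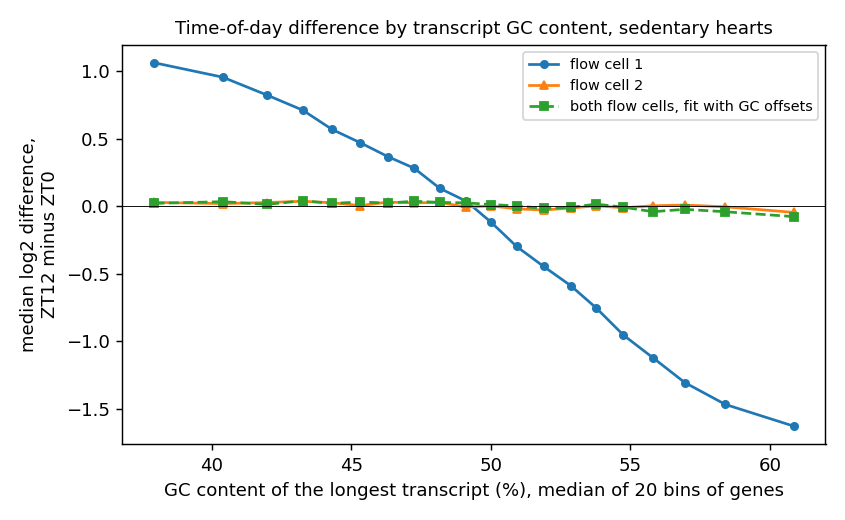
Median difference between ZT12-SED and ZT0-SED (log2 scale, y axis) in 20 bins of genes by GC content of the longest transcript (percent, x axis), for flow cell 1, flow cell 2 and the fit with GC offsets. The flow cell 1 line falls from 1.06 in the lowest bin to -1.63 in the highest, while flow cell 2 goes from 0.03 to -0.05.

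The activating arm of the clock was far lower at ZT12. Arntl (ENSMUSG00000055116) had 19.3, 23.4 and 29.0 CPM as the lowest, median and highest value in ZT0-SED and 0.568, 1.41 and 2.49 CPM in ZT12-SED, a log2 change of -4.21 ± 0.26 (± SE here and below, 6 hearts at each time, edgeR adjusted p = 3.77e-10). Npas2 (ENSMUSG00000026077) went from 4.04, 6.03 and 6.53 CPM to 0.575, 0.625 and 0.719 CPM (-3.12 ± 0.20, edgeR adjusted p = 4.19e-10). In both genes every ZT0 heart lay above every ZT12 heart, and the differences were of like size on flow cells 1 and 2, at -3.91 and -4.43 for Arntl and -3.15 and -2.70 for Npas2. Clock itself overlapped between the times, at 19.1 to 65.5 CPM in ZT0-SED and 15.0 to 52.4 CPM in ZT12-SED (-0.44, edgeR adjusted p = 0.229). With GC offsets its change was -0.84 (adjusted p = 0.00516). Arntl2, a paralogue of Arntl, did not pass (0.24, adjusted p = 0.435).

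Among the negative arm, Per1, Per2, Per3 and Ciart were higher at ZT12 and the cryptochromes did not pass. Per2 (ENSMUSG00000055866) had 1.94, 3.40 and 3.91 CPM as the lowest, median and highest value at ZT0 and 28.2, 31.9 and 43.8 CPM at ZT12 (3.42 ± 0.25, edgeR adjusted p = 1.81e-09). Per3 went from 3.33, 5.42 and 8.26 CPM to 43.5, 45.5 and 55.0 CPM (3.03 ± 0.21, edgeR adjusted p = 8.76e-10). Ciart, a repressor of CLOCK-BMAL1 activity, went from 1.17, 1.86 and 2.11 CPM to 3.84, 7.73 and 10.5 CPM (2.09 ± 0.21, edgeR adjusted p = 4.81e-07). None of these 3 genes overlapped between times. Per1, which also responds acutely to glucocorticoids and cAMP, behaved differently, with 2.48 to 9.14 CPM at ZT0 and 1.53 to 68.7 CPM at ZT12. The 3 ZT12 hearts of flow cell 2 held 44.9, 52.3 and 68.7 CPM and those of flow cell 1 held 1.53, 8.25 and 9.66 CPM. Per1 was higher by 2.22 ± 0.38 over all mice (edgeR adjusted p = 0.00107), with differences of 0.65 for flow cell 1 and 2.99 for flow cell 2, and that difference between flow cells passed its test (adjusted p = 0.029) but not with GC offsets. Cry1 did not pass (0.14, adjusted p = 0.534), and Cry2 stood at 0.44 (adjusted p = 0.118), at 0.91 with GC offsets (adjusted p = 3.45e-05).

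The nuclear receptor and DEC loop was split. Nr1d2 (REV-ERB beta) had 16.8, 37.8 and 49.0 CPM as the lowest, median and highest value at ZT0 and 112, 195 and 519 CPM at ZT12, with no overlap (2.57 ± 0.29, edgeR adjusted p = 5.34e-06). Its relative Nr1d1 (REV-ERB alpha) had 8.91, 13.4 and 31.7 CPM at ZT0 and 2.69, 17.0 and 35.3 CPM at ZT12 (-0.10 ± 0.31, adjusted p = 0.828). Its sign differed between flow cells (flow cell 1 gave -1.26, flow cell 2 gave 0.80), and it was 0.39 with GC offsets (adjusted p = 0.31). Bhlhe41 (DEC2), a repressor that competes for E-boxes, was higher by 1.17 ± 0.18 (edgeR adjusted p = 0.000366), and every ZT12 heart exceeded every ZT0 heart. Rora, an activator of Arntl, was higher by 0.94 ± 0.23 (edgeR adjusted p = 0.0193). That call was lost without ZT12-SED 2 (adjusted p = 0.053) or without ZT0-SED 3 (adjusted p = 0.056), and without ZT12-SED 1 and 2 together (adjusted p = 0.16). Bhlhe40, which encodes DEC1, did not pass (0.49).

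All 4 of 4 output factors passed the threshold. Dbp, Tef and Hlf, the PAR bZIP activators of D-box genes, were higher, and Nfil3, which represses through the same D-boxes, was lower. Tef had 49.4, 56.8 and 62.7 CPM as the lowest, median and highest value at ZT0 and 119, 179 and 213 CPM at ZT12 (1.61 ± 0.15, edgeR adjusted p = 1.28e-07). Hlf went from 8.20, 12.5 and 14.1 CPM to 34.7, 44.2 and 80.8 CPM (2.03 ± 0.20, edgeR adjusted p = 4.81e-07). Dbp went from 5.66, 11.7 and 13.7 CPM to 14.0, 59.8 and 142 CPM (2.48 ± 0.29, edgeR adjusted p = 6.89e-06). Dbp was thus higher in every ZT12 heart, with flow cell 1 giving 1.58 and flow cell 2 giving 3.15 (adjusted p = 0.028 for the difference between flow cells). That difference did not pass with GC offsets. Nfil3 went from 11.8, 15.1 and 17.6 CPM to 1.53, 4.61 and 7.10 CPM (-1.79 ± 0.22, edgeR adjusted p = 2.07e-05), again without overlap. Over the 4 clock lists 10 genes were higher and 3 lower of 20, against 2.46% and 2.74% of all genes. Of these 13 clock calls that of Rora alone was lost when single libraries were left out.

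**Figure D3:**
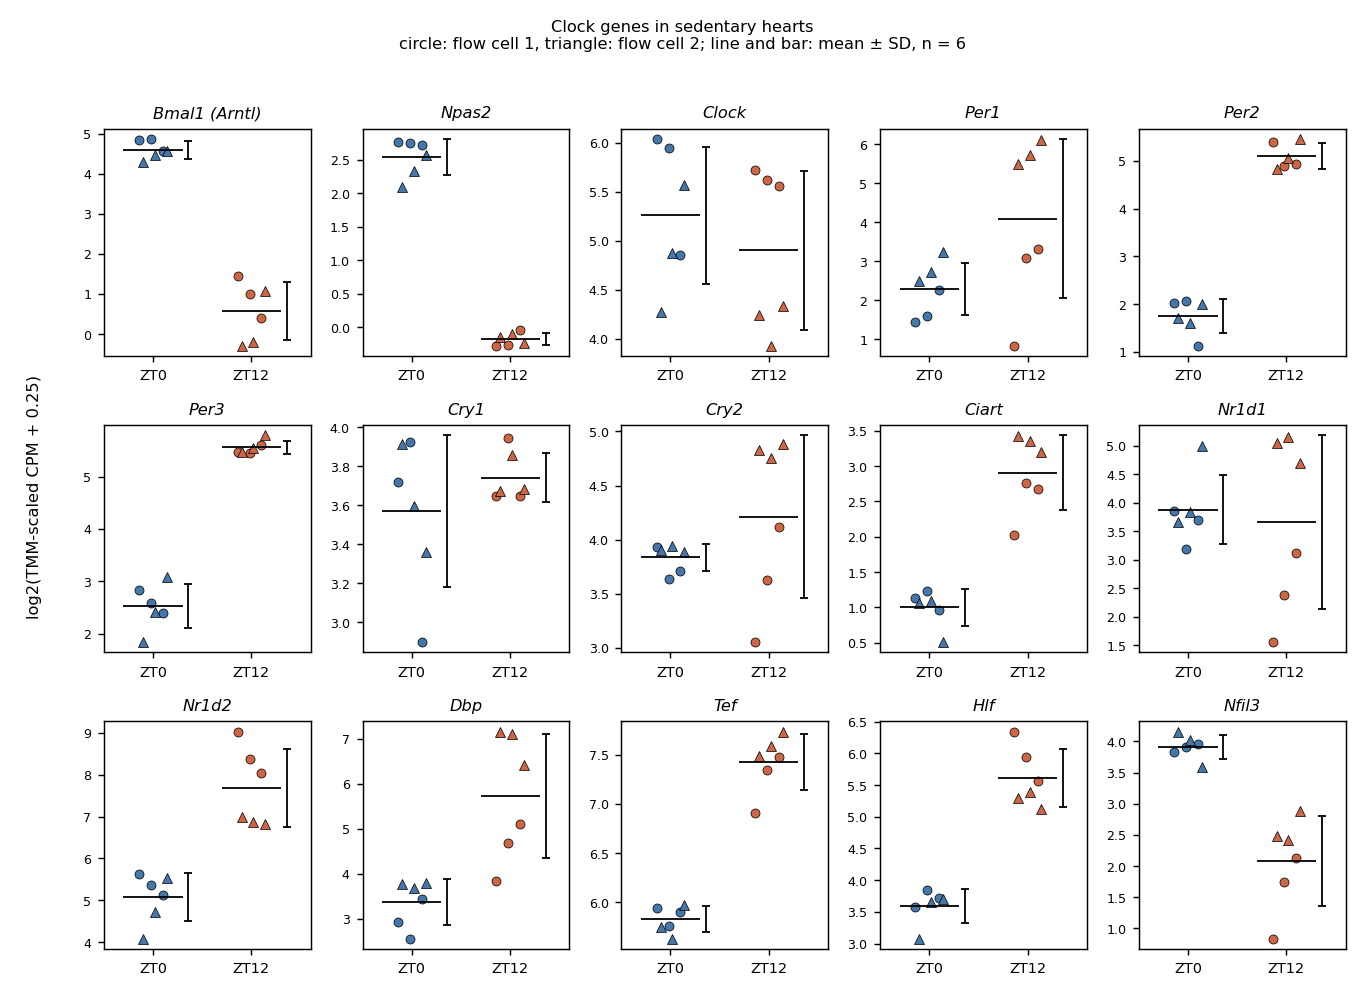
Levels of 15 clock genes as log2(CPM + 0.25) in each of the 6 ZT0-SED and 6 ZT12-SED hearts, 1 point per heart (circles flow cell 1, triangles flow cell 2), with the mean and SD of each group and an axis of its own for each gene. Arntl and Npas2 lie lower at ZT12 and Per2, Per3, Tef and Hlf higher with no overlap, whereas Per1 and Nr1d1 separate by flow cell within ZT12-SED.

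Windows around the annotated gene starts are shown for 4 clock genes whose levels differed, chosen because they hold the letters through which these factors are known to act. A further window of Arntl and of Per1, not shown, and the windows of Npas2, Nr1d2 and Dbp held none of the motifs searched. Each runs from 250 bases before to 50 bases after a RefSeq transcript start (GRCm38.p6), 5′ to 3′ on the gene's strand. Capitals mark a motif on either strand: the E-box CACGTG in Ciart (chr3:95882179-95882478, minus strand, 3 copies) and Per1 (chr11:69098699-69098998, plus strand), the D-box TTATGTAA in Per3 (chr4:151044616-151044915, minus strand, 2 copies), and the ROR element TAGGTCA in Arntl (chr7:113207261-113207560, plus strand).
Ciart: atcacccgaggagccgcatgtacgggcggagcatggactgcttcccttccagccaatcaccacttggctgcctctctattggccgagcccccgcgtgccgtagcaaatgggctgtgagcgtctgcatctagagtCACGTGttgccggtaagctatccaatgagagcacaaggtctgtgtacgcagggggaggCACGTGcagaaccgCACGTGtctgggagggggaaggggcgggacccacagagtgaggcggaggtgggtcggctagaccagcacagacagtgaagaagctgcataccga
Per1: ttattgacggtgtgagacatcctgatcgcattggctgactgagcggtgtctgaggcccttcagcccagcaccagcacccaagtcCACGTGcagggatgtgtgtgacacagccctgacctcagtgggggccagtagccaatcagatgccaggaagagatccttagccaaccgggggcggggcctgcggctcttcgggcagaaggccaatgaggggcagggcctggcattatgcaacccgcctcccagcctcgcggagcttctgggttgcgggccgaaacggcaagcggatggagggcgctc
Per3: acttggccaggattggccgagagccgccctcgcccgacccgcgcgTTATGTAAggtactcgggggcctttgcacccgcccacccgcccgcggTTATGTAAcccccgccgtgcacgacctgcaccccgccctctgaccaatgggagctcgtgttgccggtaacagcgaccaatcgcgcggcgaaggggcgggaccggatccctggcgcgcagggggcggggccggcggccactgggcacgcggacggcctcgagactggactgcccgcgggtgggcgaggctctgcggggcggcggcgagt
Arntl: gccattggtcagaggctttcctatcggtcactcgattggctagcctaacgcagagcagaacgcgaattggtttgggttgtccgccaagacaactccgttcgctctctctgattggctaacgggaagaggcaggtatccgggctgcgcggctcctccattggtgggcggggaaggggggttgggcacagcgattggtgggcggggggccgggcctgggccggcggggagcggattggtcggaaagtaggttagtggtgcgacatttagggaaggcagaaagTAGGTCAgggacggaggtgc

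The 4 motifs were searched on both strands of these 300-base windows. These are the E-box CACGTG, the D-box (TTATGTAA or TTACGTAA), the ROR element (AATAGGTCA, AAAGGTCA or TAGGTCA, where the first form contains the third) and the cAMP response element TGACGTCA. Of 20 clock genes, 17 had a window. The E-box was found in 5 of them (Bhlhe41, Ciart, Cry1, Per1 and Tef), the D-box in Per3, the ROR element in Arntl and Nfil3, and the cAMP response element in Hlf. Over the whole comparison, the E-box was present in 35 of 281 genes called higher (12.5%, 95% exact binomial interval 8.83% to 16.9%), in 28 of 305 called lower (9.18%, 6.19% to 13.0%) and in 1259 of 10972 symbols of tested genes that had a window (11.5%). The ROR element was present in 2.49% of genes called higher (1.01% to 5.07%), 6.89% of genes called lower (4.31% to 10.3%) and 3.41% of all. The D-box stood at 1.42%, 0.328% and 0.902%, and the cAMP response element at 3.91%, 4.59% and 3.40%. These shares describe letters in a short window and leave out more distant elements.

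Of the genes called over all mice, 29 also passed on each flow cell alone, 16 higher and 13 lower, with 0 in opposite directions. They have a median GC content of 52.3%. Of the 29, 28 passed with GC offsets (Ckap4 did not) and 28 did not overlap between the times (Hif3a did), against 3.47% and 1.7% of all genes. Both counts follow largely from choosing genes that passed on each flow cell of the same 12 hearts. Against 65.5% of all genes tested, all 29 had the same sign in the exercised hearts. The clock lists hold 9 of them, Arntl, Npas2, Per2, Per3, Ciart, Dbp, Tef, Hlf and Nfil3. The other 20 are Fam107a, Leo1, Slc41a3, Stc1, Mthfd1l, Tmem171, Rhobtb1, Col5a3, Klhdc8a, Wee1, Fkbp5, Adamts4, Ifi207, Fabp7, Ckap4, Colq, Spon2, Herpud1, Hif3a and the predicted gene Gm27252, of which Stc1, Rhobtb1, Adamts4, Ifi207, Fabp7, Ckap4 and Gm27252 were chosen after their values were seen.

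Among the genes higher at ZT12, Fam107a, which encodes an actin-associated stress-response protein, went from 2.30, 3.13 and 3.83 CPM (lowest, median and highest) to 15.9, 25.2 and 38.0 CPM (3.10 ± 0.27, edgeR adjusted p = 7.23e-08). Mthfd1l, an enzyme of mitochondrial folate metabolism, went from 0.315, 0.626 and 0.786 CPM to 1.92, 3.80 and 4.70 CPM (2.61 ± 0.26, edgeR adjusted p = 6.37e-07). Wee1, a kinase that restrains entry into mitosis and a known target of the clock, went from 4.96, 6.88 and 9.21 CPM to 16.0, 21.1 and 48.3 CPM (1.80 ± 0.22, edgeR adjusted p = 1.93e-05). In each of these genes the 12 hearts fell into separate ranges. Wee1 was the 1 of 28 cell division genes to pass, where 5.2% of all genes passed. Rhobtb1 went from 27.7, 29.4 and 49.0 CPM to 94.6, 116 and 149 CPM (1.87 ± 0.20, edgeR adjusted p = 1.67e-06). Stc1, the secreted glycoprotein stanniocalcin, was higher by 2.02 ± 0.20 (edgeR adjusted p = 4.81e-07). Hif3a, an alpha subunit of the hypoxia-inducible factors, was higher by 2.70 ± 0.39 (edgeR adjusted p = 0.000146). The ZT12 heart that overlapped for Hif3a was ZT12-SED 1 at 0.575 CPM, below the highest ZT0 value of 0.722 CPM. That value is near the depth limit of ZT12-SED 1, whose normalised library size was 5213526. Gpcpd1, a glycerophosphocholine phosphodiesterase chosen after its values were seen, went from 47.3 to 150 CPM at ZT0 to 213 to 853 CPM at ZT12 (1.94 ± 0.27, edgeR adjusted p = 7.3e-05).

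Among the genes lower at ZT12, Spon2, which encodes a secreted matrix protein, went from 18.8, 26.2 and 37.0 CPM to 0, 2.24 and 4.22 CPM (-3.57 ± 0.47, edgeR adjusted p = 4.1e-05). Slc41a3, a magnesium transporter, went from 27.4, 31.0 and 47.6 CPM to 2.30, 6.33 and 9.44 CPM (-2.65 ± 0.25, edgeR adjusted p = 3.14e-07). Leo1, a subunit of the PAF1 transcription elongation complex, went from 18.1, 19.8 and 28.1 CPM to 5.73, 6.91 and 7.86 CPM (-1.62 ± 0.15, edgeR adjusted p = 1.62e-07). The change of Leo1 was -1.47 and -1.73 on flow cells 1 and 2, -1.51 with GC offsets and -1.62 in exercised hearts. Col5a3, a chain of type V collagen, was lower at -2.47 ± 0.28 (edgeR adjusted p = 3.69e-06) and Colq, which anchors acetylcholinesterase, at -2.23 ± 0.29 (edgeR adjusted p = 2.99e-05). Tmem171 (-2.60), the forkhead factor Foxs1 (-2.59) and Klhdc8a (-2.31) were lower with no overlap either. The tight junction gene Cldn5 was lower at -2.35 ± 0.43 (edgeR adjusted p = 0.00203), with overlap at 9.87 to 41.9 CPM against 0.767 to 13.4 CPM, and in exercised hearts it did not pass (-0.62, adjusted p = 0.496). Its difference between sedentary and exercised hearts did not pass either. Cldn5 is 1 of 18 endothelial markers, of which 1 was higher and 3 lower, against 2.46% and 2.74% of all genes. The 18 markers had a median of -0.26 (-0.82 for flow cell 1 and 0.11 for flow cell 2). They summed to 1476 to 1824 CPM at ZT0 and 730 to 1865 CPM at ZT12. Adamts4 and Fabp7 were near the depth limit at ZT12, at no more than 0.206 and 0.514 CPM, against at least 0.845 and 1.47 CPM in each ZT0 heart.

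Glucocorticoid-responsive genes were higher at ZT12 in 9 of 18 members and lower in 2 (Angptl4 and Cdkn1a), against 2.46% and 2.74% of all genes, with a median log2 change of 0.83 against -0.007 over all genes. Flow cell 1 gave a median of 0.57, flow cell 2 gave 1.15, and with GC offsets 12 were higher and 1 lower (2.14% and 1.33% of all genes). The count of higher members was between 7 and 10 when single libraries were left out, and that of lower members was 1 without ZT12-SED 1, 2 or 4 or without ZT0-SED 2 or 3. In exercised hearts 2 of the 18 were higher and 1 lower (0.811% and 0.837% of all genes), with a median of 0.03, and the difference between the lists' medians was not tested. Fkbp5, a co-chaperone of the glucocorticoid receptor, went from 9.19, 12.8 and 14.8 CPM to 31.8, 44.9 and 59.3 CPM (1.89 ± 0.23, edgeR adjusted p = 2.03e-05). Zbtb16, a zinc finger factor induced by glucocorticoids, went from 2.06, 8.84 and 20.7 CPM to 19.8, 60.8 and 67.1 CPM (2.49 ± 0.43, edgeR adjusted p = 0.00108), with 1 ZT12 heart inside the ZT0 range. Tsc22d3, which encodes GILZ, went from 57.2, 72.3 and 111 CPM to 170, 218 and 751 CPM (1.88 ± 0.30, edgeR adjusted p = 0.000376). The value of 751 CPM came from ZT12-SED 1, and the other 5 ZT12 hearts also exceeded all ZT0 hearts. Klf9 (1.55 ± 0.24, edgeR adjusted p = 0.000366) did not overlap either, and its relative Klf15, a regulator of cardiac metabolism and of potassium channel rhythms, was higher by 0.97 ± 0.21 with overlap (edgeR adjusted p = 0.00761). Cebpd (1.52 ± 0.29, chosen after its values were seen) and Cebpb, which belongs to none of the lists (2.13 ± 0.39), encode related bZIP factors and were higher too. Of these genes Fkbp5 also passed in exercised hearts (1.19, adjusted p = 0.00475), as did Zbtb16 (1.79, adjusted p = 0.024), while Tsc22d3 (0.88), Klf9 (0.29), Klf15 (-0.10), Cebpb (0.35) and Cebpd (0.07) did not. For none of them did the difference between sedentary and exercised hearts pass (edgeR, smallest adjusted p of all genes 0.125).

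Protein folding factors of the endoplasmic reticulum were lower at ZT12 in 6 of 18 members and higher in 1, against 2.74% and 2.46% of all genes, with a median log2 change of -0.35. With GC offsets 5 were lower and 1 higher (1.33% and 2.14% of all genes), and in exercised hearts 2 and 0 (0.837% and 0.811%). The count of lower members ran from 4 without ZT12-SED 2 to 7 without ZT0-SED 6, where 1617 of all 15394 genes tested were lower. Manf, a secreted stress-responsive chaperone, went from 49.4, 66.5 and 126 CPM to 29.5, 31.1 and 36.5 CPM (-1.34 ± 0.24, edgeR adjusted p = 0.00167). Pdia6, a disulfide isomerase, went from 91.9, 111 and 157 CPM to 57.8, 66.9 and 81.1 CPM (-0.79 ± 0.15, edgeR adjusted p = 0.00209). The times did not overlap for either gene. Creld2 (-1.52 ± 0.27) and Sdf2l1 (-1.56 ± 0.29) were lower too, but Sdf2l1 did not pass with GC offsets (-0.98, adjusted p = 0.104). Herpud1, which serves the degradation of misfolded proteins rather than their folding, went the other way, from 78.1, 81.2 and 96.5 CPM to 133, 183 and 273 CPM (1.19 ± 0.17, edgeR adjusted p = 8.56e-05). Of 26 cytosolic heat shock proteins 4 were lower and 0 higher (2.74% and 2.46% of all genes), led by the small heat shock protein Hspb1 (-1.60 ± 0.32, edgeR adjusted p = 0.00459). Hspb1 did not pass without ZT12-SED 1 and 2 (-1.22, adjusted p = 0.072), and the list count was 1 without ZT12-SED 2 or without ZT0-SED 1, 2 or 4. Without ZT0-SED 6 it was 7 lower and 2 higher, beside 1617 lower and 1191 higher of all 15394 genes tested. In exercised hearts 1 of the heat shock proteins was lower and 0 higher (0.837% and 0.811% of all genes).

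Several genes of the extracellular matrix and of cardiac load were lower at ZT12. Among 20 collagens 9 were lower and 1 higher, against 2.74% and 2.46% of all genes, with a median log2 change of -0.74 (flow cell 1 gave -1.12, flow cell 2 gave -0.33). With GC offsets 2 were lower and 0 higher, namely Col5a3 and Col15a1 (1.33% and 2.14% of all genes). The count of lower collagens ran from 4 without ZT12-SED 2 to 10 without ZT0-SED 6, where 1617 of all 15394 genes tested were lower. That of higher collagens was 0 without ZT12-SED 1, 2, 4 or 5 or without ZT0-SED 1, 2, 3 or 4. Of 13 fibroblast markers, among them Col1a1 and Col1a2, 1 was lower and 0 higher (2.74% and 2.46% of all genes), and 3 were lower without ZT0-SED 6. Their median was -0.64 (-0.79 for flow cell 1 and -0.17 for flow cell 2, with 4 of 13 above 0; -0.20 with GC offsets), and they summed to 2422 to 3972 CPM at ZT0 and 2440 to 4182 CPM at ZT12, with 0 markers at 0 in all 12 hearts. Their part in the collagen values was not tested. Col15a1, a basement membrane collagen, went from 44.8, 57.1 and 64.6 CPM to 10.7, 22.9 and 42.5 CPM (-1.28 ± 0.22, edgeR adjusted p = 0.00107) with no overlap. Elastin (Eln) went from 40.3, 65.4 and 90.2 CPM to 8.06, 24.1 and 48.6 CPM (-1.44 ± 0.21, edgeR adjusted p = 0.00017; -0.82 with GC offsets, adjusted p = 0.00104). The collagen chaperone Serpinh1 was lower at -1.04 ± 0.16 (edgeR adjusted p = 0.000366), but not past the threshold with GC offsets (-0.40, adjusted p = 0.232). Of 27 elastic fibre and matricellular genes 3 were lower and 2 higher (2.74% and 2.46% of all genes), and with GC offsets 2 and 2. Of 24 collagen-folding and cross-linking enzymes 2 were lower and 0 higher, and with GC offsets 0 and 0. With single libraries left out, 2 to 6 and 2 to 5 members of these lists were lower. In exercised hearts 8 of the 20 collagens were lower and 0 higher (0.837% and 0.811% of all genes), and the median of the fibroblast markers was 0.09.

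Of 18 load-responsive cardiac genes 4 were lower and 1 higher (2.74% and 2.46% of all genes), and in exercised hearts 3 and 0 (0.837% and 0.811%). The 4 lower genes also passed with GC offsets and without ZT12-SED 1 and 2, and the count of higher genes was 0 without ZT12-SED 1 or 2 or without ZT0-SED 1, 2, 3 or 4. Nppb, which encodes the B-type natriuretic peptide that ventricular muscle releases under stretch, went from 174, 241 and 502 CPM to 39.5, 71.8 and 108 CPM (-1.92 ± 0.35, edgeR adjusted p = 0.00208). Rcan1, an inhibitor and transcriptional target of calcineurin, went from 63.7, 77.1 and 84.2 CPM to 25.1, 35.3 and 49.3 CPM (-1.11 ± 0.14, edgeR adjusted p = 2.91e-05). Tnfrsf12a, the receptor of TWEAK, went from 21.5, 27.9 and 41.5 CPM to 4.80, 11.6 and 17.8 CPM (-1.53 ± 0.26, edgeR adjusted p = 0.000978). These 3 genes did not overlap between times and were lower in exercised hearts as well. Markers of atrial cardiomyocytes summed to 323 to 4187 CPM at ZT0 and 58.6 to 2587 CPM at ZT12. Of the 8 markers 0 were higher and 0 lower (2.46% and 2.74% of all genes). Their median was -0.27 (-1.40 for flow cell 1 and 0.03 for flow cell 2), and their part in the Nppb values was not tested. The coregulator Cited4 was lower at -2.05 ± 0.37 (edgeR adjusted p = 0.00167) with overlap. Tubulins were lower in 6 of 15 members and higher in 0 (2.74% and 2.46% of all genes), with a median of -0.92. They were lower in 3 with GC offsets (1.33% of all genes) and in 0 in exercised hearts (0.837% of all genes). The count of 6 lower tubulins ran from 1 without ZT12-SED 2 or without ZT0-SED 3 to 12 without ZT0-SED 6, where 1617 of all 15394 genes were lower. Tubb2a (-1.12 ± 0.17, edgeR adjusted p = 0.000187) was the member that did not depend on a single library.

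**Figure D4:**
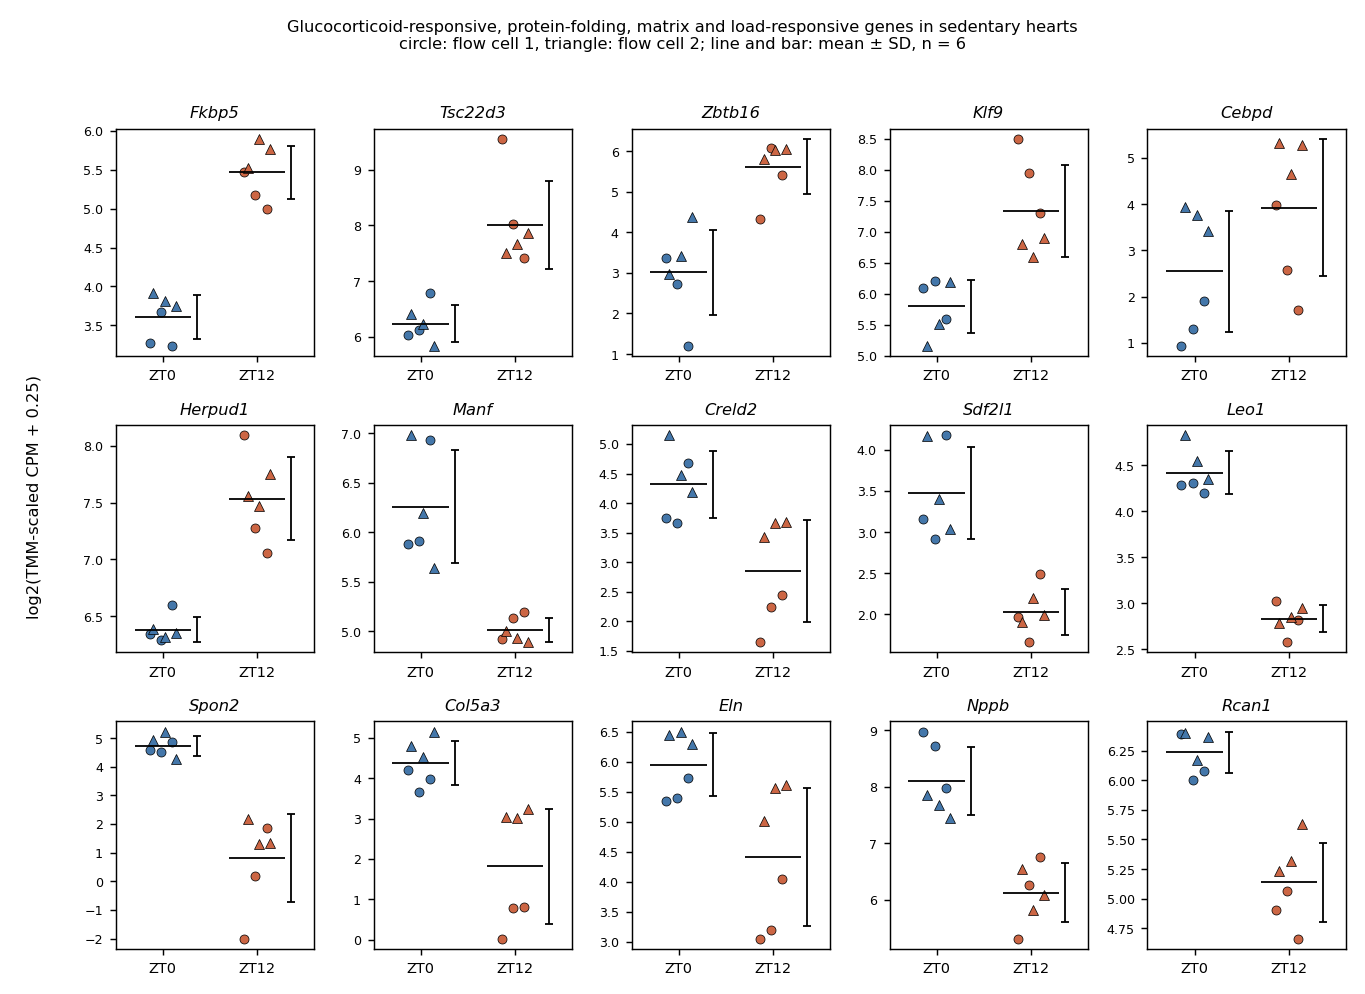
Levels of 15 glucocorticoid-responsive, protein-folding, matrix and load-responsive genes as log2(CPM + 0.25) in each of the 6 ZT0-SED and 6 ZT12-SED hearts, 1 point per heart (circles flow cell 1, triangles flow cell 2), with the mean and SD of each group and an axis of its own for each gene. Fkbp5, Tsc22d3 and Herpud1 lie higher at ZT12 and Spon2, Leo1 and Rcan1 lower, without overlap, whereas Cebpd overlaps.

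Detoxification enzymes were higher at ZT12 in 7 of 41 members and lower in 1, against 2.46% and 2.74% of all genes. With GC offsets the counts were 7 and 0 (2.14% and 1.33% of all genes), and in exercised hearts 8 and 1 (0.811% and 0.837%). The count of higher members ran from 5 without ZT12-SED 1, 2 or 3 or without ZT0-SED 1 or 3 to 9 without ZT0-SED 6. The count of lower members was 0 without ZT12-SED 1, 2 or 3 or without ZT0-SED 1, 2 or 3, and 5 without ZT0-SED 6. Of all 15394 genes tested without ZT0-SED 6, 1191 were higher and 1617 lower. Fmo2, a flavin monooxygenase, went from 36.1, 50.4 and 78.8 CPM to 129, 197 and 293 CPM (1.88 ± 0.24, edgeR adjusted p = 2.38e-05). The efflux transporter Abcg2 went from 16.3, 24.1 and 30.9 CPM to 33.2, 47.1 and 89.6 CPM (1.13 ± 0.17, edgeR adjusted p = 0.000249). Aldh1a1, which makes retinoic acid, went from 30.9, 46.9 and 55.8 CPM to 64.1, 91.7 and 251 CPM (1.27 ± 0.22, edgeR adjusted p = 0.00112). All 3 were above the ZT0 range in every ZT12 heart.

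In insulin signalling 4 of 25 genes were higher and 0 lower, against 2.46% and 2.74% of all genes, and 5 were higher with GC offsets (2.14% of all genes). With single libraries left out 3 to 7 were higher, with 7 without ZT0-SED 6, where 1191 of all 15394 genes tested were higher. Pik3r1, the regulatory subunit of phosphoinositide 3-kinase, went from 35.4, 51.2 and 67.0 CPM to 90.5, 140 and 229 CPM (1.50 ± 0.25, edgeR adjusted p = 0.000833). Foxo3, a transcription factor that insulin inhibits, went from 23.5, 30.2 and 42.5 CPM to 48.3, 62.4 and 81.5 CPM (1.05 ± 0.18, edgeR adjusted p = 0.00112). The pseudokinase gene Trib1 was higher by 0.63 ± 0.15 (edgeR adjusted p = 0.0148) with overlap. None of these 3 passed in exercised hearts, where their changes were 0.70, 0.48 and 0.34, and the difference from sedentary hearts did not pass either (adjusted p = 0.571 to 0.588). Slc25a33, a mitochondrial pyrimidine nucleotide carrier, was higher by 1.08 ± 0.19 with no overlap (edgeR adjusted p = 0.00105). The deubiquitinase gene Usp2, a known clock output, was higher by 1.07 ± 0.21 with no overlap (edgeR adjusted p = 0.00434). Nampt, the rate-limiting enzyme of NAD salvage, was higher by 1.27 ± 0.29 (edgeR adjusted p = 0.0122) but not without ZT12-SED 1 and 2 (0.86, adjusted p = 0.15).

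Cytokine, chemokine and SOCS genes were higher in 5 of 31 and lower in 2 (2.46% and 2.74% of all genes), and in exercised hearts in 1 and 1 (0.811% and 0.837%). The count of higher genes was 3 with GC offsets, without ZT12-SED 1, 2 or 3 or without ZT0-SED 1, 2 or 3. Il33, an alarmin, went from 6.71, 7.64 and 10.9 CPM to 15.8, 21.2 and 36.2 CPM (1.38 ± 0.29, edgeR adjusted p = 0.00768) and Socs2, an inhibitor of growth hormone signalling, from 19.1, 30.2 and 32.0 CPM to 37.6, 56.7 and 134 CPM (1.15 ± 0.20, edgeR adjusted p = 0.00138). Il33 was also higher in exercised hearts (1.87, adjusted p = 0.000675). Of 13 macrophage and monocyte markers 2 were higher and 1 lower (2.46% and 2.74% of all genes), with 5 of 13 changes above 0. Their median was -0.30, with -0.69 for flow cell 1 and -0.12 for flow cell 2. Lyve1 (1.24 ± 0.25) and Cd163 (0.96 ± 0.22), which mark resident macrophages, were higher. Cx3cr1, the fractalkine receptor, was lower, from 4.36, 7.38 and 9.36 CPM to 1.34, 1.82 and 3.30 CPM (-1.73 ± 0.33, edgeR adjusted p = 0.00275), and its ligand gene Cx3cl1 was lower at -1.37 ± 0.27 (edgeR adjusted p = 0.00389). The 13 markers together summed to 362 to 672 CPM at ZT0 and 379 to 701 CPM at ZT12. In the hypoxia and angiogenic list, the apelin receptor Aplnr went from 27.1, 44.3 and 58.4 CPM to 5.56, 19.1 and 26.1 CPM (-1.25 ± 0.26, edgeR adjusted p = 0.00643), with no overlap. In that list 1 of 27 genes was higher (Hif3a) and 2 lower, beside 2.46% and 2.74% of all genes. Without ZT0-SED 6, 4 were higher and 5 lower, beside 1191 and 1617 of all 15394 genes tested.

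Several large functional classes of the heart gave no calls by edgeR over all mice. In order, the counts were 0 of 74 nuclear-encoded respiratory chain subunits (median -0.51), 0 of 42 cytosolic ribosomal proteins (-0.76), 0 of 24 sarcomere genes (-0.52), 0 of 21 calcium handling genes (0.07) and 0 of 21 sodium, calcium and gap junction channel genes (-0.002). At an unadjusted p below 0.05 the edgeR counts were 28, 23, 7, 7 and 6. DESeq2 called 22, 17, 4, 4 and 3 members of these lists and limma-voom 3, 4, 0, 1 and 0. Of all 15294 genes tested, DESeq2 called 2845, limma-voom 742 and edgeR 795. The edgeR counts of 0 also rested on ZT0-SED 6. Without it 22 respiratory chain, 21 ribosomal protein and 5 sarcomere genes were lower, 1 calcium handling gene was higher and 2 lower, and 3 of the channel genes were higher. Of all 15394 genes tested without ZT0-SED 6, 1191 were higher and 1617 lower. The medians of the respiratory chain and ribosomal protein genes were -0.61 and -1.11 in replicates 1 to 3, against -0.20 and -0.22 in replicates 4 to 6. Of 25 potassium channel genes 1 was higher and 1 lower (2.46% and 2.74% of all genes). The higher count was 0 without ZT12-SED 1, 2 or 4 or without ZT0-SED 1, 2, 3, 4 or 5, and 4 without ZT0-SED 6, and the lower count was 0 without ZT12-SED 1, 2 or 3 or without ZT0-SED 3. Of 13 transcripts of the mitochondrial genome 1 was higher and 0 lower (2.46% and 2.74% of all genes), with a median of 0.69. The part of the mitochondrial shares of ZT12-SED 1 to 3 in that median was not tested. The count of higher mitochondrial transcripts was 0 without ZT12-SED 1 or 2 or without ZT0-SED 1.

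**Figure D5:**
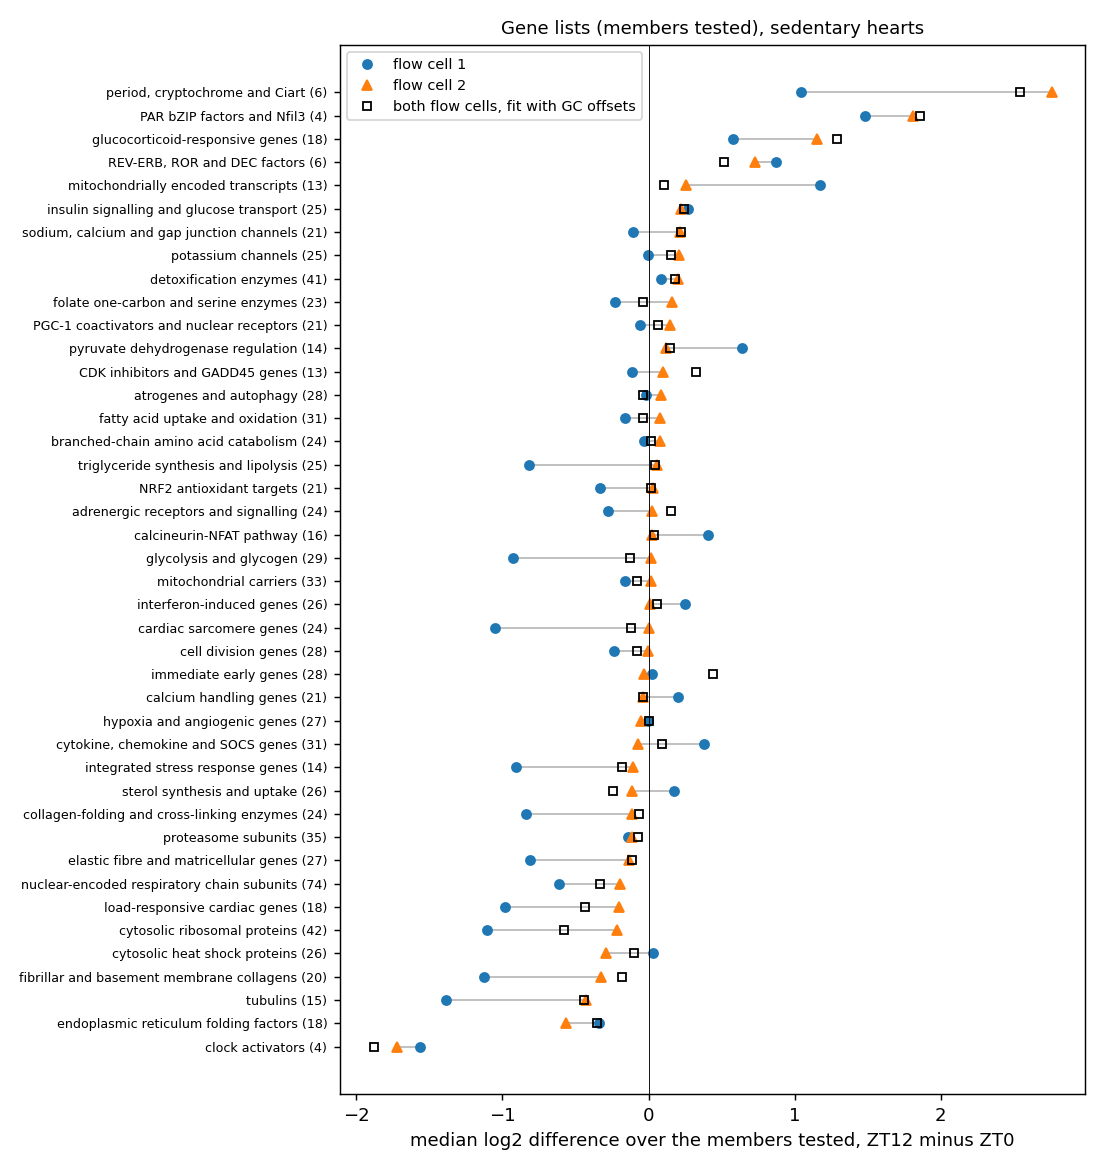
Median log2 difference between ZT12-SED and ZT0-SED (x axis) over the tested members of each gene list on flow cell 1 (circles), on flow cell 2 (triangles) and in the fit with GC offsets (squares), with the number of members in parentheses. The glucocorticoid-responsive list lies above 0 on both (0.57 and 1.15), while collagens, tubulins and ribosomal proteins lie far below 0 on flow cell 1 (-1.12, -1.39 and -1.11) and nearer to 0 on flow cell 2 (-0.33, -0.43 and -0.22).

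Exercised hearts are libraries of other mice, but both comparisons came from 1 model with a shared spread and flow cell term, and the exercised calls moved with the sedentary libraries (370 without ZT12-SED 1 and 435 without ZT12-SED 1 and 2). The GC trend also recurred on flow cell 1, at -0.72 to -0.58 in ZT12-EX 1 to 3 and -0.23 to -0.18 in ZT0-EX 1 to 3, and its part in the shared signs below was not tested. Between ZT12-EX and ZT0-EX, 252 genes passed (1.65%), 124 higher (0.811%) and 128 lower (0.837%). Of these, 157 passed in the same direction in sedentary hearts, 62.3% of the exercised calls and 19.7% of the sedentary ones, and 0 in the opposite direction. Of the 376 genes higher in sedentary hearts 357 had the same sign in exercised hearts, and of the 419 lower genes 404, beside 65.5% of all genes tested. With GC offsets in both comparisons these were 309 of 327 higher and 194 of 204 lower genes, beside 55.8% of all. The median change of those gene sets was 0.94 in sedentary and 0.45 in exercised hearts for the higher genes, and -0.96 and -0.52 for the lower ones. Both sets were chosen on their sedentary values. In exercised hearts the change was -4.60 for Arntl, -2.87 for Npas2, 2.53 for Per3, 2.84 for Dbp and 1.66 for Tef. Per1 did not pass in exercised hearts (-0.01, adjusted p = 0.993), beside its sedentary change of 2.22. The test of sedentary against exercised differences gave 0 genes by edgeR (0.0%). The smallest adjusted p was 0.125, 1226 genes had an unadjusted p below 0.05, and the counts were 0 by limma-voom and 5 by DESeq2. In that test Fam107a had adjusted p = 0.125 and Per1 adjusted p = 0.506.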

How the data were processed

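Raw read counts per gene were deposited by the authors for 24 mouse heart poly-A RNA libraries, each with 52350 Ensembl genes. Per the submitters' processing notes the tools were Trimmomatic 0.39, HISAT2 2.2.1 and Subread featureCounts 2.0.1, with GRCm39, and for settings, strand and annotation release: not given in the sources used here. Symbols and transcript GC content came from another annotation release by Ensembl ID, with 257 IDs unmatched (0.0013% of counts).

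Differences were computed from these counts by edgeR 4.0.16 (R 4.3.3; quasi-likelihood, robust, TMM, filterByExpr) in 1 model of all 24 libraries. Its terms were the group and the flow cell, which left 19 residual degrees of freedom, so all 4 groups share an estimate of the spread. P-values were adjusted by Benjamini-Hochberg over 15294 genes. Standard errors are those implied by the F statistic. GC offsets subtract a lowess trend (span 0.3) from each library. Alternatives used limma 3.58.1, DESeq2 1.42.0, sva 3.50.0, other filters and scalings, a replicate block and libraries left out. The fits were tested on simulated data.

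The members and the 56 gene lists were chosen with earlier results of these data known. Named genes were up to 12 in each direction with the largest changes (mean log2 CPM of at least 1, same sign on both flow cells, no predicted models), up to 5 per list by p-value, clock list members and a preset list, and the text marks those picked afterwards. One clock list member is not reported here. No 2 libraries of a group were duplicates. A table of RefSeq promoters (GRCm38.p6) gave the sequences, and 10972 of the 15285 distinct symbols among the tested genes had a window. Intervals and limits from counts cover counting error only.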

Additional observations from a re-analysis of the deposited data

Results flagged for a closer look

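In 8 of 116 groups of 6 hearts tested, the highest or lowest heart stood apart from the other 5 by more than Dixon's 95% critical value, and chance flags about 1 in 20. Among ZT12-SED hearts, ZT12-SED 1 was the highest for Bhlhe41 (29.2 CPM, group median 19.3), Tsc22d3 (751 CPM, median 218) and Cebpb (60.0 CPM, median 23.4), and the lowest for Hif3a (0.575 CPM, median 2.61). That library had the smallest total and the lowest mean correlation with the others of the 12. Its Hif3a value was near its depth limit. Among ZT0-SED hearts, ZT0-SED 6 was the highest for Nr1d1 (31.7 CPM, median 13.4) and Rhobtb1 (49.0 CPM, median 29.4), and ZT0-SED 3 for Herpud1 (96.5 CPM, median 81.2). The highest ZT0-SED value for Fabp7 was 4.84 CPM, and the lowest 1.47 CPM.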

How the results depend on the processing

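The count of genes that differ between sedentary hearts (795) was 234 with library totals, 478 with no filter, 2845 with DESeq2, 129 with no flow cell term, 6552 on flow cell 1 alone, 35 on flow cell 2 alone, 243 with the sedentary groups alone, 2884 without replicate 6 of every group, 225 without ZT12-SED 1 and 2, and 170 without both sets. With GC offsets on flow cells 1 and 2 alone it was 1746 and 41. Leaving out 1 library gave 305 to 2808. The causes were not tested. Beyond group and flow cell, same-numbered libraries correlated at -0.17 to 0.44, with the best match on its own number for replicate 6 alone. With 3 libraries per group and flow cell this check cannot exclude pairing. Beyond group alone, which leaves flow cell differences in, the correlations were -0.14 to 0.73. There the best match was on its own number for replicates 2 and 4. The replicate block gave 608 genes, 60 in the sedentary groups alone and 501 with GC offsets.

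The exercised count (252) was 85 with library totals, 535 with DESeq2, 62 with no flow cell term, 1383 with 2 surrogate variables, 17 on flow cell 2 alone, 435 without ZT12-SED 1 and 2, 403 with GC offsets, 113 and 22 with GC offsets on flow cells 1 and 2 alone, and 620 without ZT12-SED 1 and 2 and replicate 6. The count for sedentary against exercised differences (0) was 5 with DESeq2 or 2 surrogate variables, 1 with no filter, without replicate 6, without ZT12-SED 1 and 2, with GC offsets and with GC offsets and the replicate block, 2 without both sets, and 0 to 1 with 1 library left out. The difference between flow cells (1998 genes) went to 0 with GC offsets, where the smallest edgeR adjusted p was 0.0534. In the last 150 bases of the promoter windows the E-box share of higher genes was 8.54%, the ROR element share of lower genes 3.93%, and the D-box share 0.0% in higher and in lower genes.

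Changes of sign (log2 scale) arose for Cry2 on flow cell 1 alone (-0.11), Cry1 with library totals (-0.037), Ckap4 with GC offsets on flow cell 1 alone (0.209), and Arntl2 with GC offsets (-0.094), with GC offsets and the replicate block (-0.13) and with GC offsets on flow cell 1 alone (-0.22). Nr1d1 turned positive with no flow cell term (0.23), 2 surrogate variables (0.46), flow cell 2 alone (0.68), without ZT12-SED 1 and 2 (0.34), with GC offsets (0.39), with GC offsets and the replicate block (0.45), with GC offsets on flow cells 1 and 2 alone (0.015 and 0.69), without both sets (0.57), and without ZT12-SED 1 (0.096), ZT12-SED 2 (0.044), ZT0-SED 1 (0.022) or ZT0-SED 6 (0.014), and leaving out 1 library gave -0.28 at the lowest. On library totals 3 counts correspond to 0.130 to 0.309 CPM. Gene values are on the normalised library size, which was 5213526 in ZT12-SED 1, so its depth limit lies above 0.309 CPM.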
